A study of Mus musculus with 11 samples.

Results

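Dtx1, which encodes Deltex E3 ubiquitin ligase 1, was examined together with 7 related genes in visceral adipose tissue (VAT) and lymphoid regulatory T (Treg) cells that all carried the same T cell receptor (TCR). The 8 genes were the Notch pathway genes Dtx1, Notch1, Notch2, Rbpj and Hes1 and the anergy-associated ubiquitin ligases Cblb, Rnf128 and Itch, out of 52997 genes in the count table. Dtx1 was chosen by its low counts in VAT, so its difference between tissues is described below without a test. The other 7 genes were listed for their place in the Notch pathway or among anergy ligases, with earlier results of these data known. A filter on low counts, a mean above 10 in at least 1 group, was passed by 7 of the 8 genes. Dtx1 passed it only through the lymphoid groups, where it was high, and Hes1 did not pass.

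The cells were donor-derived vTreg53 Tg+ Treg cells, from mice of the C57BL/6 strain that carry a transgenic TCR cloned from 1 VAT Treg clone, and they are therefore a model of 1 TCR specificity. All groups shared one transfer step, in which CD45.1 B6 recipients received Treg cells taken from the spleen and lymph nodes (Spl/LN) of the transgenic mice. Each library was made by Smart-seq2, a method that copies polyadenylated mRNA into cDNA and amplifies it by PCR, from 1000 clonotype+ cells sorted from Spl/LN or VAT, and the labels give 15 weeks and male for all samples. The Fat1562 mice received a surrogate agonist peptide of the vTreg53 TCR, first in CFA under the skin 6 weeks after transfer and then in IFA into the peritoneal cavity 1 week later. The labels name PBS and call the control mice unimmunized, whereas the paper describes adjuvant alone, so the groups without peptide are called control here. If the labels hold, Fat1562 and control also differ in adjuvant, and the parts of peptide and adjuvant cannot be told apart. The groups were Spl/LN control (n = 3), Spl/LN Fat1562 (n = 3), VAT control (n = 2) and VAT Fat1562 (n = 3). For VAT the paper describes a warm collagenase digestion with shaking, and it names none for Spl/LN. Tissue and digestion therefore cannot be told apart in these data.

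Notch receptors are activated when a ligand of the Jagged or Delta-like family on a neighbouring cell binds them. ADAM proteases and then gamma-secretase cut the receptor, and the released intracellular domain joins the DNA-binding protein RBPJ and a Mastermind coactivator to switch on targets such as Hes1, Hey1, Nrarp and Dtx1. In the absence of that domain, RBPJ recruits corepressors. DTX1 is both a product and a modifier of Notch signaling, and in T cells it is known as one of the E3 ubiquitin ligases linked to anergy, the unresponsive state that follows TCR stimulation without costimulation. CBL-B, ITCH and GRAIL (encoded by Rnf128) are the other well-known ligases of that state, in which they mark signaling proteins near the TCR for degradation or rerouting.

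In the GENCODE vM21 annotation of GRCm38, Dtx1 lies at chr5:120680202-120711927 on the minus strand and Rbpj at chr5:53466152-53657362 on the plus strand of the same chromosome. Notch1 lies at chr2:26457903-26516663 (minus), Itch at chr2:155133509-155226855 (plus) and Notch2 at chr3:98013527-98150361 (plus). Hes1 lies at chr16:30064384-30067796 (plus), Cblb at chr16:52031225-52208048 (plus) and Rnf128 at chrX:139563316-139673145 (plus). The exons of Notch1 share 1068 bases with 0610009E02Rik and 414 with Gm13568, both on the opposite strand, and since the use of strand in counting is not given in the sources used here, reads of the shared bases could be counted for either gene; 0610009E02Rik reached at most 4.18 normalized counts in any library and Gm13568 had no read. Notch2 shares 541 bases with Gm42820 on the same strand, which was 3.67 to 27.5 normalized counts. Of the 38-base stretches of Rbpj transcripts, 11.2% also occur in other annotated genes, chiefly the pseudogene Rbpj-ps3, against 0.686% for Dtx1 and none for Cblb, Rnf128 and Hes1.

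The core letters that RBPJ is known to bind, TGGGAA or its reverse complement TTCCCA, were searched in RefSeq promoter windows (GRCm38.p6, from 250 bases before to 50 after a transcript start), which were at hand for 6 of the 8 genes. The letters occurred in windows of 2 of the 6 genes, Rbpj and Cblb, and in 25.6% of 32851 windows of all genes. The Dtx1, Notch1, Notch2 and Rnf128 windows held no match, which says only that these letters are not in those windows. Part of the first Rbpj window is shown because Rbpj was the one gene, of the 6 tested between tissues, that passed the test in both treatments. This window lies inside the annotated gene, which begins at chr5:53466152, and another Rbpj window begins at 53590236. The stretch shown spans chr5:53590096-53590213 on the plus strand and stops where an annotated exon begins. Capitals mark the first match of the window, at chr5:53590197-53590202, which ends 11 bases before that exon. The window holds a second match, which starts at position 53590281. It lies past the stretch shown but still within the 250 bases before the transcript start of the window.
Rbpj promoter: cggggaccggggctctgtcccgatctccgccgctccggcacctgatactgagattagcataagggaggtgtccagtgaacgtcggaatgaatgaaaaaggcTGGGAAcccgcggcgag

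Total counts per library ran from 4490242 to 6570057, and 12932 genes were tested. The defining Treg markers Foxp3, Il2ra, Ctla4, Ikzf2, Cd3e, Cd3d, Cd4 and Trac were at 0 in no library, and Foxp3 was between 6776 and 10300.2 normalized counts. The VAT control libraries differed in some marker genes: replicate 2 held 28671 normalized counts of Ighm, against 6044 in replicate 1, and 252 of Ly6c2, against at most 61.0 in the other libraries. With only these libraries in the group, neither can be called the outlier, and some calls below were lost without replicate 1. Results that rest on replicate 2 are given below with and without it.

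Dtx1 was abundant in Spl/LN Treg cells and nearly absent from VAT Treg cells of the same clonotype. In normalized counts, which are counts scaled to the mean library size, Dtx1 was 415, 565 and 494 in Spl/LN control (491 ± 75.2, SD, n = 3) and 792, 584 and 507 in Spl/LN Fat1562 (628 ± 147, SD, n = 3). It was 0 and 6.26 in VAT control (3.13 ± 4.43, SD, n = 2) and 3.39, 5.11 and 10.1 in VAT Fat1562 (6.19 ± 3.47, SD, n = 3). Every Spl/LN library was above every VAT library, and within each tissue the control and Fat1562 libraries overlapped, so the 4 groups formed a high and a low pair.

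The VAT values rest on very few reads: 0 and 5 reads of Dtx1 in the control libraries and 3, 5 and 11 in the Fat1562 libraries, against 428 to 827 in the Spl/LN libraries. For the library at 0, a count of 0 allows up to 3.27 normalized counts (3 counts). Summed over libraries, Dtx1 was 168-fold lower in VAT than in Spl/LN in control mice (95% exact interval 71.8 to 518, from 5 against 1507 reads). It was 96.8-fold lower after Fat1562 (61.8 to 161, from 19 against 2002 reads). The fold in control mice rests on both VAT control libraries: the fitted log2 fold change, -7.33 with all libraries, was -6.27 without replicate 1, and without replicate 2 the library left had no read, so no fold is given. These intervals cover counting error, and no molecular identifiers were named, so reads are not independent molecules. In these bulk libraries, fewer cells that express a gene and less RNA per cell cannot be told apart.

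Fat1562 did not move Dtx1 past the test in Spl/LN. The log2 fold change of Fat1562 against control was 0.35 in Spl/LN (SE 0.22, 95% interval -0.10 to 0.81, adjusted p = 0.416, edgeR's quasi-likelihood test with Benjamini-Hochberg adjustment over the 12932 genes). In VAT both groups were under the filter's mean of 10, so the values are given without a test: summed over libraries the ratio of Fat1562 to control was 2.21 (95% exact interval 0.797 to 7.56, from 19 against 5 reads, counting error only).

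**Figure D1:**
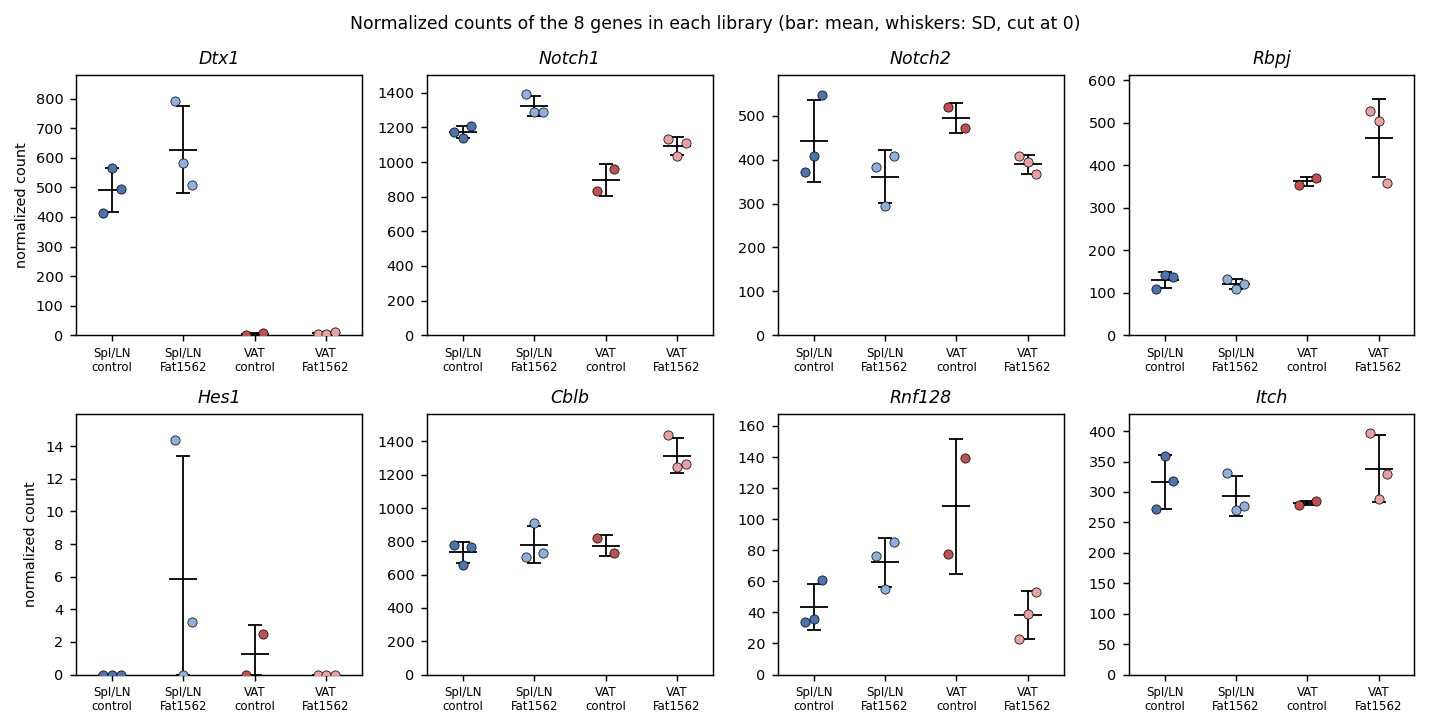
Normalized counts (linear vertical axes, one scale per gene) of the 8 genes in each of the 11 libraries, with 1 point per library, the group mean as a bar and the SD as whiskers. The 6 Spl/LN libraries hold 415 to 792 normalized counts of Dtx1 and the 5 VAT libraries 0 to 10.1, whereas Rbpj runs the opposite way, Cblb is highest in VAT Fat1562 and Rnf128 is highest in VAT control.

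Markers of B cells, which also express Dtx1, moved in part with it, and their share in the Dtx1 difference was not tested. Of 12 B cell genes, 6 passed the low-count filter. Between VAT and Spl/LN, 2 were called lower (background 7.17%) and 0 higher (background 9.09%) in control mice. After Fat1562, 3 were called lower (background 6.73%) and 0 higher (background 8.26%). Cd22 was 85.9 to 144 normalized counts in Spl/LN and 1.09 to 14.3 in VAT, and Ighd was 113 to 198 against 14.2 to 63.4. By fitted log2 fold change, called or not, 2 of the 6 were higher in VAT of control mice and 1 after Fat1562. Cd79a averaged 12.3 in Spl/LN control and 15.2 in VAT control, and 15.0 and 17.7 in the Fat1562 groups. The defining B cell genes Ms4a1 and Pax5 were near 0 in both tissues: Ms4a1 reached at most 6.54 and Pax5 at most 6.26 normalized counts in any library. The sum of the 12 genes, nearly all Ighm, was 16964 to 17523 in Spl/LN control and 12451 to 13510.0 in Spl/LN Fat1562. It was 6167 to 28879 in VAT control and 6471 to 8709 in VAT Fat1562.

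The other 4 Deltex genes did not share the pattern as a group. Dtx4, which encodes another ligase of the family, was the one that separated all Spl/LN from all VAT libraries. Like Dtx1, Dtx4 passed the low-count filter only through the Spl/LN groups, where it was high. Its means in VAT, 9.996 in control and 8.16 in Fat1562, were under the filter's mean of 10 and rest on 17 and 23 reads. It was 109.5, 62.8 and 54.1 normalized counts in Spl/LN control, 38.3, 31.1 and 28.1 in Spl/LN Fat1562, 8.72 and 11.3 in VAT control and 11.3, 12.3 and 0.916 in VAT Fat1562. The VAT libraries were thus below all Spl/LN libraries, with a log2 fold change of -2.91 in control mice (SE 0.64) and -2.01 after Fat1562 (SE 0.56). Because of the way Dtx4 passed the filter, this difference is described here without a test, as for Dtx1. In the counts of called genes of the Notch list below, Dtx4 is included as lower in VAT. Those calls were lost without VAT control replicate 1 in control mice, and without Spl/LN Fat1562 replicate 1 or VAT Fat1562 replicate 3 after Fat1562.

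Dtx2, Dtx3 and Dtx3l did not separate the Spl/LN from the VAT libraries over all 11 libraries. In control mice alone, Dtx2 was 168 to 203 normalized counts in VAT, below the 238 to 332 in Spl/LN (groups without overlap, lower: background 20.4%). Dtx2 was 168 to 332 normalized counts and its log2 fold change between VAT and Spl/LN was -0.62 in control mice (adjusted p = 0.0541) and -0.11 after Fat1562 (adjusted p = 0.756). Dtx3, at 197 to 326 normalized counts, differed by -0.20 (adjusted p = 0.572) and 0.03 (adjusted p = 0.942). Dtx3l, which partners with PARP9 in the response to DNA damage and interferon, was 739 to 1070.1 normalized counts and differed by -0.12 (adjusted p = 0.616) and -0.28 (adjusted p = 0.127). None of the 4 genes passed the test of Fat1562 against control in either tissue.

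**Figure D2:**
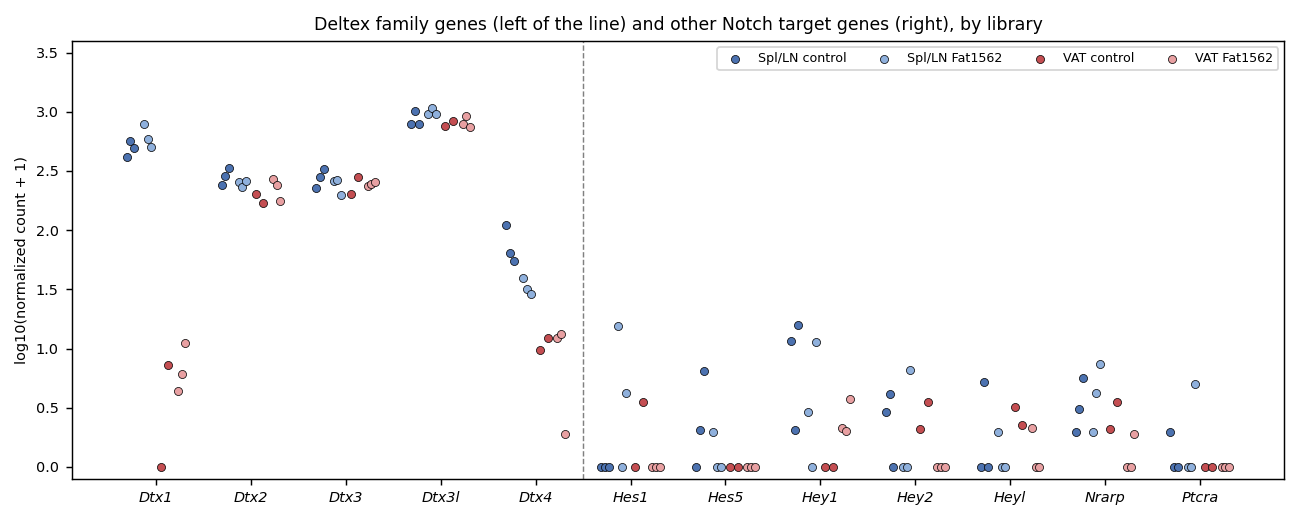
Log10(normalized count + 1) of the 5 Deltex family genes (left of the dashed line) and 7 other Notch target genes (right), with 1 point per library coloured by group. Dtx1 and, at a lower level, Dtx4 separate Spl/LN from VAT libraries, Dtx2, Dtx3 and Dtx3l do not, and the 7 other target genes lie at 14.7 normalized counts or below in every library.

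Hes1, the classical Notch target that encodes a transcriptional repressor, was almost undetected. It had no read in the 3 Spl/LN control and the 3 VAT Fat1562 libraries, 0 and 2 reads in VAT control, and 15, 0 and 4 reads in Spl/LN Fat1562, which is at most 14.4 normalized counts. A count of 0 allowed up to 2.75 to 3.39 normalized counts (3 counts) in the 6 libraries of the groups without a Hes1 read. The reads in Spl/LN Fat1562 came mainly from replicate 1. With no filter on low counts, its adjusted p was 0.128 for Fat1562 against control in Spl/LN and 0.571, 0.0755 and 0.754 in the other comparisons, in the order VAT against Spl/LN in control mice, the same after Fat1562, and Fat1562 against control in VAT.

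The remaining target genes were low in both tissues, so Dtx1 was the one listed Notch target that passed the low-count filter. Hey1 reached 14.7 normalized counts at most, Nrarp, which encodes a feedback inhibitor of the Notch complex, 6.43, Hey2 5.63, Hes5 5.50, Heyl 4.18 and Ptcra 4.02. They did not pass the filter, and their differences between groups were not tested.

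Genes with the most similar profile to Dtx1 were not other Notch genes. By Pearson correlation of log2(normalized count + 1) over the 11 libraries, the 5 tested genes most like Dtx1 were Clec2i (r = 0.98), Mypopos (0.98), Cd22 (0.98), Ces2c (0.98) and Cd160 (0.97). Over the 6 Spl/LN libraries alone the same correlations were 0.87, 0.27, 0.08, -0.02 and -0.47, so most of the likeness came from the step between tissues. Clec2i, an NK receptor ligand, averaged 226 and 245 normalized counts in Spl/LN control and Fat1562 and 45.9 and 75.1 in VAT control and Fat1562. Ces2c, a carboxylesterase, averaged 147 and 111 in the Spl/LN groups and 0.626 and 2.89 in the VAT groups, and Cd160 averaged 70.5 and 71.5 against 1.88 and 5.04. Among the genes listed with Dtx1, the correlation over 11 libraries was 0.85 for Notch1, -0.94 for Rbpj, -0.59 for Cblb, -0.34 for Notch2, 0.31 for Hes1, -0.06 for Itch and -0.01 for Rnf128. The points share libraries and the tissue step, and the values are descriptions.

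Over the listed genes other than Dtx1, 3 of 6 tested passed the test between VAT and Spl/LN in control mice, against 16.3% of all tested genes. Rbpj and Rnf128 were higher in VAT (2 genes, background 9.09%) and Notch1 was lower (1 gene, background 7.17%). The groups did not overlap for the same 2 higher genes (background 21%) and the same lower gene (background 20.4%). After Fat1562, 2 of 6 passed (background 15%), Rbpj and Cblb, both higher in VAT (background 8.26%) and none lower (background 6.73%). There the groups did not overlap for 2 higher genes (background 18.8%) and 2 lower genes, Notch1 and Rnf128 (background 17.4%).

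For Fat1562 against control, 2 of the 6 genes other than Dtx1 passed in VAT (background 8.3%), Cblb higher (background 4.32%) and Rnf128 lower (background 3.97%). The VAT groups did not overlap for 3 higher genes, Notch1, Cblb and Itch (background 21.1%), and 2 lower genes, Notch2 and Rnf128 (background 20%). In Spl/LN 0 of 7, with Dtx1 counted, passed by edgeR (background 3.98%, with 2.58% higher and 1.4% lower), 0 by DESeq2, and 0 had an unadjusted p under 0.05. The Spl/LN groups did not overlap for 1 higher gene, Notch1 (background 11.4%), and 0 lower genes (background 9.84%). The test of whether the Fat1562 effect differed between tissues passed for 2 of 6 genes (background 3.72%), Cblb upward (background 1.7%) and Rnf128 downward (background 2.02%). The comparisons share libraries, and with 6 or 7 genes a count of 2 or 3 moves by 1 with a single call.

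**Figure D3:**
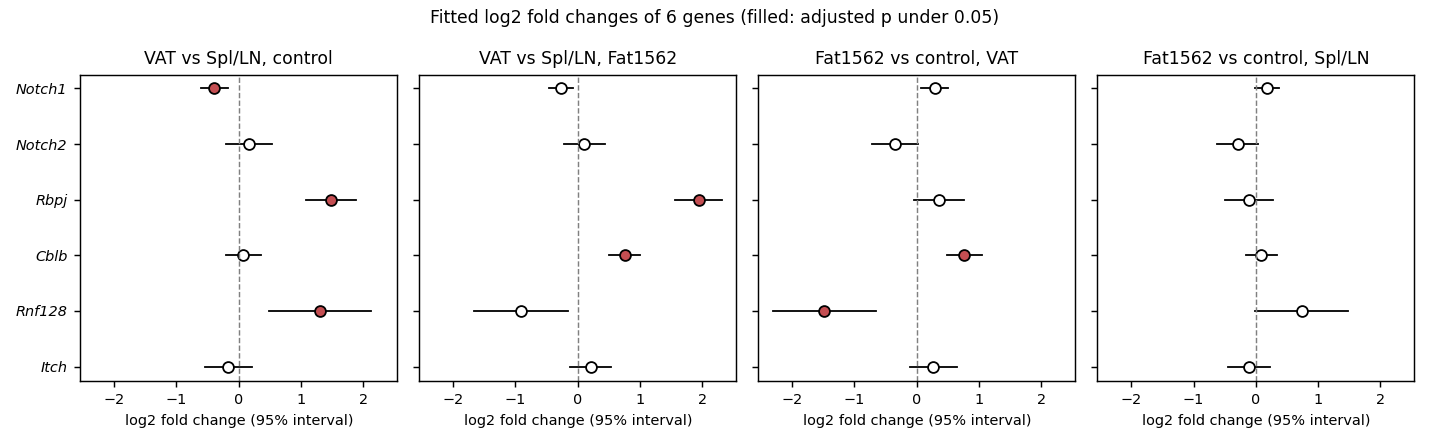
Fitted log2 fold changes (horizontal axis) with 95% intervals for Notch1, Notch2, Rbpj, Cblb, Rnf128 and Itch in 4 comparisons, with filled points where the adjusted p was under 0.05. Rbpj is filled and to the right in both tissue panels (1.48 and 1.94), Cblb is filled after Fat1562 in VAT (0.77), Rnf128 changes side between panels, and no point is filled in the Spl/LN panel on the right.

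Among the receptors, Notch1 was well expressed in all groups and modestly lower in VAT. It was 1172, 1139 and 1211 normalized counts in Spl/LN control (1174 ± 35.7, SD, n = 3) and 1390.5, 1290.2 and 1291 in Spl/LN Fat1562 (1324 ± 57.8, SD, n = 3). In VAT it was 831 and 962 in control (897 ± 92.4, SD, n = 2) and 1135, 1036 and 1107 in Fat1562 (1093 ± 51.0, SD, n = 3). Under each treatment every VAT library was below every Spl/LN library, although VAT Fat1562 lay close under Spl/LN control.

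The Notch1 difference between VAT and Spl/LN was -0.39 on the log2 scale in control mice (SE 0.10, adjusted p = 0.0152, fold 0.763). It lost its call with only the groups compared in the fit (adjusted p = 0.0824) and without VAT control replicate 1 (-0.29, adjusted p = 0.194), and held without VAT control replicate 2 (-0.50, adjusted p = 0.0206). After Fat1562 the difference was -0.28 (SE 0.09, adjusted p = 0.0504), just outside the threshold. It was called under 5 of 20 alternatives, with adjusted p-values from 0.0121 with quantile normalization to 0.182 over all of them, among them the fit without Spl/LN control replicate 3 (adjusted p = 0.0417). The Fat1562 effect on Notch1 was 0.29 in VAT (adjusted p = 0.108) and 0.17 in Spl/LN (adjusted p = 0.332), and the difference between the 2 effects was 0.11 (adjusted p = 0.756).

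Notch2, the second Notch receptor of these cells, did not differ past the test in any comparison. Its normalized counts were 371, 408 and 547 in Spl/LN control, 382, 294 and 408 in Spl/LN Fat1562, 519.8 and 471 in VAT control and 407, 393 and 366 in VAT Fat1562. The log2 fold change between VAT and Spl/LN was 0.16 in control mice (95% interval -0.20 to 0.53, adjusted p = 0.592) and 0.10 after Fat1562 (-0.23 to 0.44, adjusted p = 0.737). For Fat1562 against control it was -0.35 in VAT (-0.72 to 0.02, adjusted p = 0.265), where the 2 groups did not overlap, and -0.29 in Spl/LN (-0.62 to 0.04, adjusted p = 0.348).

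The other receptors were scarce. Notch3 was 26.2 and 28.8 normalized counts in VAT control, 22.6, 17.4 and 4.58 in VAT Fat1562 and at most 15.6 in any Spl/LN library, and its tissue differences did not pass the test (log2 fold change 2.34, adjusted p = 0.161 in control mice and 3.15, adjusted p = 0.0828 after Fat1562). Notch4 stayed between 0 and 20.7.

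Of 7 listed ligand genes, Jag1 and Jag2 passed the low-count filter, and Dll1, Dll3, Dll4, Dlk1 and Dlk2 reached at most 11.6 normalized counts in any library. Jag1, which encodes the ligand Jagged1, was 31.0, 29.3 and 11.9 in Spl/LN control, 18.2, 16.1 and 9.65 in Spl/LN Fat1562, 88.3 and 68.9 in VAT control and 22.6, 17.4 and 12.8 in VAT Fat1562. Both VAT control libraries were above all others. Its log2 fold change was 1.71 in VAT against Spl/LN in control mice (SE 0.47, adjusted p = 0.0191) and -2.16 for Fat1562 against control in VAT (SE 0.48, adjusted p = 0.0091). Jag1 rests on 55 and 81 reads in the VAT control pair: the first call was lost without either of these libraries (adjusted p = 0.159 without replicate 1 and 0.0576 without replicate 2), and the second without replicate 1 (0.0993) but not replicate 2 (0.039). Jag2 lay between 7.66 and 29.3 in all libraries and passed no test.

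Rbpj, which encodes the DNA-binding partner of the Notch intracellular domain, was higher in VAT under both treatments. It was 109, 142 and 138 normalized counts in Spl/LN control (129 ± 18.3, SD, n = 3), 132, 109 and 119.8 in Spl/LN Fat1562 (120 ± 11.3, SD, n = 3), 354 and 369.5 in VAT control (362 ± 10.9, SD, n = 2) and 528, 505 and 358 in VAT Fat1562 (464 ± 92.3, SD, n = 3). All 5 VAT libraries were above all 6 Spl/LN libraries, and within each tissue control and Fat1562 libraries overlapped. Rbpj was 2.79-fold higher in VAT than in Spl/LN in control mice (log2 fold change 1.48, SE 0.19, adjusted p = 2.74e-05). It was 3.84-fold higher after Fat1562 (log2 fold change 1.94, SE 0.18, adjusted p = 5.45e-07). Both calls held under all 20 alternatives run for each, with log2 fold changes of 1.37 to 1.56 and 1.84 to 2.10. Fat1562 against control gave 0.36 in VAT (95% interval -0.04 to 0.75, adjusted p = 0.300) and -0.10 in Spl/LN (-0.49 to 0.28, adjusted p = 0.821). The Rbpj direction was thus opposite to that of Dtx1 in every VAT library.

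Around Rbpj, the 7 other genes of the nuclear complex mostly did not move with tissue. Maml2, a Mastermind coactivator, was the one further gene of that class that passed, at a log2 fold change of -0.59 in control mice (adjusted p = 0.0216, but 0.11 without VAT control replicate 2 and 0.112 without replicate 1) and -0.50 after Fat1562 (adjusted p = 0.028), where leaving out any VAT Fat1562 library, or Spl/LN Fat1562 replicate 2 or 3, raised the adjusted p to between 0.073 and 0.12. Among the corepressor genes, Ncor1 rose in VAT of control mice (0.50, adjusted p = 0.00161). After Fat1562 no corepressor gene passed.

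Among the anergy ligases, Cblb, whose product restrains signaling after TCR engagement without CD28, rose with Fat1562 in VAT. It was 775, 659 and 765 normalized counts in Spl/LN control (733 ± 64.2, SD, n = 3), 708, 907 and 728 in Spl/LN Fat1562 (781 ± 110, SD, n = 3) and 817 and 728 in VAT control (773 ± 63.2, SD, n = 2). In VAT Fat1562 it was 1438, 1245 and 1263 (1315 ± 107, SD, n = 3), above every library of the other 3 groups, which overlapped one another.

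Fat1562 raised Cblb 1.70-fold in VAT (log2 fold change 0.77, SE 0.13, adjusted p = 0.00121), and this call held without each library in turn, the highest adjusted p being 0.0325 without VAT control replicate 2. In Spl/LN the log2 fold change was 0.09 (95% interval -0.16 to 0.33, adjusted p = 0.743). The tissues did not differ past the test in control mice (0.08, adjusted p = 0.760), and after Fat1562 Cblb was higher in VAT by 0.75 (SE 0.12, adjusted p = 0.000183). The difference between the Fat1562 effects in the 2 tissues was 0.68 (SE 0.17, adjusted p = 0.0397). That call was lost with the replicate number as a block (adjusted p = 0.0557) and without any 1 of 9 libraries, which were Spl/LN control 1 and 3, Spl/LN Fat1562 1 and 3 and all 5 VAT libraries (adjusted p from 0.053 to 0.167, the highest without VAT control replicate 2).

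Rnf128, which encodes the transmembrane ligase GRAIL, ran the other way in VAT. It was 33.9, 35.6 and 60.5 normalized counts in Spl/LN control (43.3 ± 14.9, SD, n = 3) and 76.6, 54.7 and 85.2 in Spl/LN Fat1562 (72.2 ± 15.7, SD, n = 3). In VAT it was 77.4 and 139 in control (108 ± 43.6, SD, n = 2) and 22.6, 38.8 and 53.1 in Fat1562 (38.2 ± 15.3, SD, n = 3). The VAT control libraries were above those of VAT Fat1562 and of Spl/LN control, while the 2 Spl/LN groups overlapped. The counts behind these values were 20 to 111 reads per library.

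In control mice Rnf128 was higher in VAT than in Spl/LN by 1.31 on the log2 scale (SE 0.39, adjusted p = 0.0282). Fat1562 lowered it in VAT, with a log2 fold change of -1.49 (SE 0.39, adjusted p = 0.0252), and the value in Spl/LN was 0.74 (SE 0.36, adjusted p = 0.287). The difference between the 2 effects was -2.22 (SE 0.53, adjusted p = 0.0252), and VAT against Spl/LN after Fat1562 gave -0.91 (SE 0.36, adjusted p = 0.105). All 3 Rnf128 calls were lost without VAT control replicate 2, the library high in Ighm and Ly6c2 (log2 values of 0.83, -1.005 and -1.74). The tissue call was also lost without Spl/LN control replicate 1 (0.078) or 2 (0.0774) and with only the groups compared (0.0639). The Fat1562 call was also lost without VAT Fat1562 replicate 1 (0.0914) or 2 (0.0814). The difference of effects was also lost without Spl/LN control 1 (0.0519), Spl/LN Fat1562 1 (0.0606) or 3 (0.071), or VAT Fat1562 1 (0.0546) or 2 (0.0658).

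Itch, whose product is a HECT-type ligase known for limiting T helper 2 responses, did not differ past the test in any comparison. Its normalized counts were 272, 359.8 and 317 in Spl/LN control, 331, 270.5 and 277 in Spl/LN Fat1562, 279 and 284 in VAT control and 397, 288 and 329.6 in VAT Fat1562. The log2 fold change between VAT and Spl/LN was -0.17 in control mice (95% interval -0.54 to 0.21, adjusted p = 0.591) and 0.21 after Fat1562 (-0.12 to 0.54, adjusted p = 0.441). Fat1562 against control gave 0.26 in VAT (95% interval -0.11 to 0.64, adjusted p = 0.443), where the groups did not overlap, and -0.11 in Spl/LN (adjusted p = 0.767). Itch was called under none of the alternatives.

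Per kilobase of exon, a rough scale for setting genes side by side, Dtx1 led the 8 genes in Spl/LN and fell among the lowest in VAT. The length was that of all annotated exons of a gene, merged, and not that of the transcripts expressed. The order of genes with close values can depend on this choice. In Spl/LN control the mean normalized count per kb was 93.2 for Dtx1, 82.5 for Notch1, 70.0 for Cblb, 41.0 for Notch2, 32.6 for Itch, 12.5 for Rnf128, 10.2 for Rbpj and 0 for Hes1. In VAT control the order was Cblb (73.7), Notch1 (63.0), Notch2 (45.9), Rnf128 (31.2), Itch (29.0), Rbpj (28.4), Hes1 (0.615) and Dtx1 (0.594). In VAT Fat1562 Cblb led at 126 per kb, followed by Notch1 at 76.8 and Rbpj at 36.4, with Dtx1 at 1.17. In Spl/LN Fat1562 the first 3 were Dtx1 (119), Notch1 (93.0) and Cblb (74.5). No test was made of the differences between genes.

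Over the wider Notch list of 63 genes without Dtx1 (receptors, ligands, proteases and glycosyltransferases, nuclear factors, corepressors, targets, trafficking and Deltex genes), 49 were tested between tissues. In control mice 7 were higher and 4 lower in VAT (22.4% of the list against 16.3% of all tested genes), with a list median log2 fold change of 0.02 against -0.03 over all genes. After Fat1562, 2 were higher and 3 lower (10.2% against 15%, median -0.04 against -0.01). The protease gene Furin, whose product cleaves the Notch precursor, rose in VAT in both treatments (1.48, SE 0.28, adjusted p = 0.00103, and 1.76, SE 0.25, adjusted p = 9.28e-05). Aak1, a kinase gene of endocytosis, fell in both (-0.82, adjusted p = 0.000794, and -0.91, adjusted p = 8.15e-05). Without VAT control replicate 2, the number of list genes called in control mice was 6 instead of 11, and that of all genes 1367 instead of 2102.

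With Fat1562 few Notch genes moved. Of 50 tested, Dtx1 among them, 1 was higher and 2 lower in VAT (6% against 8.3% of all tested genes) and 1 was higher and 0 lower in Spl/LN (2% against 3.98%). In VAT Adam17, which encodes a Notch-cutting protease, rose by 0.67 (SE 0.12, adjusted p = 0.00123), while Jag1 and Neurl3 fell (Neurl3 at -0.78, SE 0.15, adjusted p = 0.00266). In Spl/LN Psen2, a catalytic subunit gene of gamma-secretase, rose by 0.72 (SE 0.11, adjusted p = 0.00128). For the difference of the Fat1562 effect between tissues, 0 of 49 genes passed by edgeR and 1 by DESeq2, and 5 had an unadjusted p under 0.05.

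**Figure D4:**
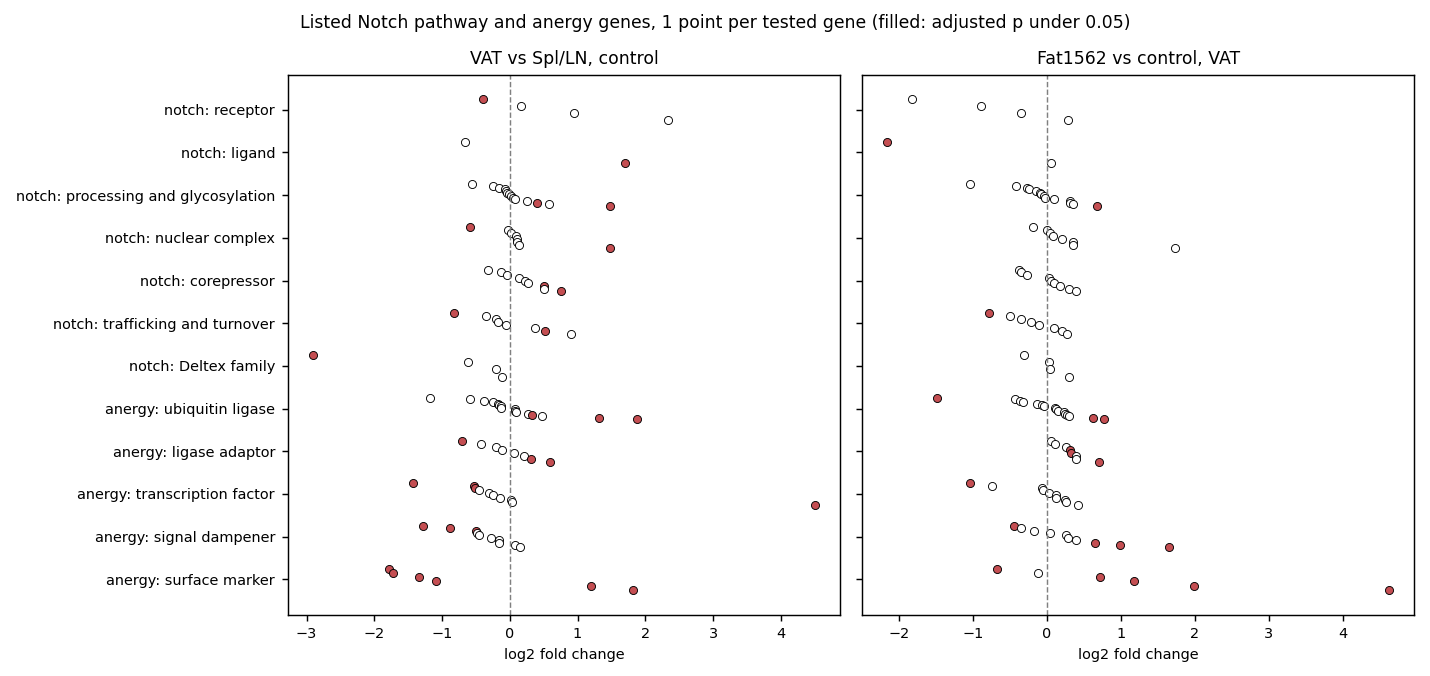
Log2 fold change of each tested gene of the Notch and anergy lists without Dtx1 (1 point per gene, by class), for VAT against Spl/LN in control mice (left) and Fat1562 against control in VAT (right), with filled points where the adjusted p was under 0.05. Most Notch classes centre near 0 in both panels, while all 6 anergy surface markers are filled on the left and the largest rise on the right is Lag3 at 4.63.

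The wider anergy list held 51 genes with Dtx1 (ligases, their adaptors, transcription factors, signal dampeners and surface markers), all of them tested. Of the 16 ligase genes without Dtx1, 3 were higher and 0 lower in VAT of control mice (18.8%) and 2 higher and 0 lower after Fat1562 (12.5%), near the 16.3% and 15% of all tested genes. Nedd4, a HECT-type ligase gene related to Itch, rose with the tissue in both treatments: it was 47.5, 18.8 and 40.4 normalized counts in Spl/LN control, 21.1, 39.7 and 34.6 in Spl/LN Fat1562, 88.3 and 177 in VAT control and 175, 164 and 130.01 in VAT Fat1562. All 5 VAT libraries were above all Spl/LN libraries, with log2 fold changes of 1.88 (SE 0.38, adjusted p = 0.00185, but 1.30 with adjusted p = 0.0765 without VAT control replicate 2) and 2.29 (SE 0.35, adjusted p = 0.000177). Cbl, the close relative of Cblb, was 988 to 1223 normalized counts in all libraries and passed no test. Peli1, another ligase gene that restrains T cell activation, rose with Fat1562 in VAT beside Cblb (0.62, SE 0.13, adjusted p = 0.00573, but 0.0972 without VAT control replicate 1). In Spl/LN 0 of 17 ligase genes passed by edgeR and 0 by DESeq2, and 2 had an unadjusted p under 0.05.

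Over the whole anergy list 8 genes were higher and 11 lower in VAT of control mice (38% against 16.3% of all tested genes, median -0.16), 8 higher and 10 lower after Fat1562 (36% against 15%, median -0.01), 12 higher and 4 lower with Fat1562 in VAT (31.4% with Dtx1 counted as not called, against 8.3%, median 0.23 against 0.01 over all genes) and 7 higher and 1 lower with Fat1562 in Spl/LN (15.7% against 3.98%, median 0.15). The list was chosen with earlier results of these data known, so these shares describe the list and are no test of it. Without VAT control replicate 2, the number called for Fat1562 in VAT was 9 instead of 16, while that of all genes was 508 instead of 1073, and Pdcd1 was among the calls lost (0.54, adjusted p = 0.117).

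Dtx1 aside, Nr4a1 and Lag3 had the largest log2 fold changes of the anergy list. Nr4a1, an immediate early gene induced by TCR signals and linked to exhaustion and anergy, was 633, 981 and 1094 normalized counts in Spl/LN control, 1152, 1519 and 1162 in Spl/LN Fat1562, 22974 and 18032 in VAT control and 11542, 9627 and 8813 in VAT Fat1562. It was far higher in VAT (4.51, SE 0.19, adjusted p = 2.01e-11 in control mice, and 2.97, SE 0.17, adjusted p = 2.17e-09 after Fat1562) and fell with Fat1562 there (-1.04, SE 0.17, adjusted p = 0.000994). VAT and Spl/LN also differ in the digestion step, whose part in the Nr4a1 difference was not tested. Lag3, an inhibitory receptor gene, was 197, 374 and 316 in Spl/LN control, 753, 769.6 and 734 in Spl/LN Fat1562, 101 and 133 in VAT control and 3119.7, 2582 and 2948 in VAT Fat1562. Fat1562 raised it by 4.63 in VAT (SE 0.23, adjusted p = 1.71e-09) and by 1.35 in Spl/LN (SE 0.17, adjusted p = 0.000129).

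Other genes of the anergy list differed in both directions. Pdcd1, which encodes PD-1, was higher in VAT by 1.83 in control mice (adjusted p = 8.18e-08) and by 1.38 after Fat1562 (adjusted p = 1.02e-06), whereas Egr2, an anergy transcription factor known to drive Cblb, was lower (-1.43, adjusted p = 0.001, and -1.92, adjusted p = 1.26e-05). Izumo1r and Nt5e, which encode the anergy surface markers FR4 and CD73, were lower in VAT of control mice (-1.79, adjusted p = 9.08e-09, and -1.72, adjusted p = 2.77e-06) and rose with Fat1562 in VAT (1.18, adjusted p = 5.98e-06, and 1.99, adjusted p = 2.8e-06). Ctla4 was higher in VAT (1.20, adjusted p = 1.08e-07, and 0.87, adjusted p = 2.42e-06), and Nrp1 was lower (-1.09, adjusted p = 3.55e-05, and -1.17, adjusted p = 4.8e-06). Ptpn6, the gene of the phosphatase SHP-1, fell in VAT (-0.88, adjusted p = 0.000107, and -0.87, adjusted p = 2.66e-05) and rose with Fat1562 in VAT (0.99, adjusted p = 9.38e-05) and Spl/LN (0.98, adjusted p = 6.15e-05). Sla, the gene of an adaptor that recruits CBL to the TCR, rose in VAT (0.71, adjusted p = 0.000181) and Spl/LN (1.01, adjusted p = 4.46e-06). In Spl/LN, Nfatc1 (0.73, adjusted p = 0.00099) and Sla2 (0.72, adjusted p = 0.000816) rose as well, and Nrp1 fell (-0.60, adjusted p = 0.0104, but 0.0505 without Spl/LN control replicate 2 and 0.0554 without Spl/LN Fat1562 replicate 2).

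Markers of other cell types were summed in each library. The summed normalized counts of 12 macrophage and monocyte genes were 69.0 to 181 in Spl/LN control, 19.2 to 90.1 in Spl/LN Fat1562, 58.8 and 278 in VAT control and 36.6 to 51.9 in VAT Fat1562. Those of 8 dendritic cell genes were 76.1 to 113, 50.8 to 56.9, 113 to 121 and 122 to 227 in the same order, and those of 8 CD8 T and NK cell genes 233 to 429, 294 to 323, 299 to 421 and 391 to 593. The 12 stromal, endothelial and adipocyte genes summed to 501 to 546, 516 to 599, 273 to 316 and 455 to 640.0. Of 3, 3, 4 and 2 tested genes of these lists, 0, 1, 1 and 1 were called between VAT and Spl/LN in control mice (background 16.3%) and 0, 2, 2 and 0 after Fat1562 (background 15%). In any library, each of these 4 lists had between 1 and 8 genes at 0. The part of these cell types in the differences above was not tested.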

How the data were processed

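The authors deposited one table of read counts, whole numbers without normalization, for 52997 genes in 11 Smart-seq2 libraries of 1000 sorted cells (paired reads of 38 bases). The submitters' processing notes name STAR 2.5.4, featureCounts and mm10, the methods name another quantifier, and the use of strand is not given in the sources used here. Groups came from the labels. The methods call replicates biological without saying whether they are separate mice, so p-values measure the spread between these libraries. Totals of 4490242 to 6570057 reads per library set the precision.

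After the filter on low counts (group mean above 10), 12932 genes were fitted with edgeR 4.0.16 in R 4.3.3 (TMM, one quasi-likelihood fit of the 4 groups, prior count 0.125) with Benjamini-Hochberg adjustment over all of them and a threshold of 0.05. SEs are the log2 fold change over the square root of F, and normalized counts are counts over the TMM-scaled library size at the mean library size. Named genes were the 8 listed, up to 12 called genes of the Notch and anergy lists per comparison by size, every listed ligand, receptor, target and Deltex gene, and the 5 genes most correlated with Dtx1. The genes and lists were chosen with earlier results of these data known, and Maml2, Ncor1, Adam17, Peli1 and Cbl were added after their values were seen. Some listed genes, though counted in their lists, are not reported here by name. The steps were tested on simulated data. Alternatives were other filters, median-of-ratios factors, quantile normalization with limma 3.58.1, DESeq2 1.42.0, only the groups compared, a replicate block, a 2-fold minimum, each library left out and, chosen after seeing the data, list counts without VAT control replicate 2.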

Additional observations from a re-analysis of the deposited data

Results flagged for a closer look

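The effect of Fat1562 differed between VAT and Spl/LN for several genes of the Notch and anergy lists, by edgeR's quasi-likelihood test of the interaction with Benjamini-Hochberg adjustment. The difference, as the log2 effect in VAT minus that in Spl/LN, was -2.22 for Rnf128 (SE 0.53, adjusted p = 0.0252) and 0.68 for Cblb (SE 0.17, adjusted p = 0.0397), and both calls depended on single libraries: without VAT control replicate 2 the adjusted p was 0.168 and 0.167.

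It was 3.28 for Lag3 (SE 0.27, adjusted p = 5.8e-06), 1.74 for Nt5e (SE 0.23, adjusted p = 0.000378) and 1.03 for Izumo1r (SE 0.15, adjusted p = 0.000929), each with the larger effect in VAT. It was -1.54 for Nr4a1 (SE 0.24, adjusted p = 0.0014) and -0.53 for Dgka (SE 0.12, adjusted p = 0.0226). The Dgka call was lost under 6 of 18 alternatives, with quantile normalization (adjusted p = 0.243), without Spl/LN Fat1562 replicate 1 (0.0629) and without VAT control 1 (0.0524) or 2 (0.116) or VAT Fat1562 1 (0.0515) or 2 (0.0513).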

How the results depend on the processing

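With a minimum 2-fold change, the genes called were 1157 (of 2102) for VAT against Spl/LN in control mice, 789 (of 1938) after Fat1562, 455 (of 1073) and 190 (of 515) for Fat1562 in VAT and Spl/LN, and 277 (of 481) for the interaction. The listed genes called then were 1 of 2 after Fat1562, 1 of 2 for Fat1562 in VAT and 1 of 2 for the interaction. Fitting only the groups compared called 1 listed gene instead of 3 in control mice and 4 instead of 2 after Fat1562. For Fat1562 in Spl/LN, no filter gave 793 genes and DESeq2 793, and DESeq2 gave 789 for the interaction. The cause was not tested. With quantile normalization the share of higher calls for Fat1562 in Spl/LN was 54.8% (292 higher, 241 lower) against 64.9% (334 and 181).

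Leaving out 1 library gave 1259 to 2114, 1289 to 2377, 508 to 1398, 190 to 502 and 240 to 575 genes in the 5 comparisons in the order above, and 2 to 3, 2 to 3, 1 to 2, 0 to 0 and 0 to 2 listed genes. The Dtx1 interaction, 0.74, turned to -0.32 (-0.317) without VAT control replicate 1 and was 5.38 without replicate 2, where a single control library at 0 was left.

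The replicate number as a block called 1804, 1861, 990, 515 and 435 genes and 3, 2, 2, 0 and 1 listed genes. It ended the Cblb interaction call. The numbers were not taken to pair libraries: correlations of same-numbered deviations were -0.04 to 0.055 over 15 pairs, although 8 of 11 libraries correlated best with their own number. Between Spl/LN and VAT libraries of the same treatment they were 0.03 to 0.055, above all other pairs, which were -0.04 to 0.025. Pairing by mouse within a treatment was not tested, and the tissue tests treat the libraries as unpaired. The block also joins control and Fat1562 libraries that share a number.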
